A study of Homo sapiens with 8 samples.

Results

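The alcohol and aldehyde dehydrogenases described here are 8 genes of the 26760 in the count table: ADH1C, ADH5, ADH7, ALDH1A1, ALDH1A3, ALDH2, ALDH3A1 and ALDH3A2. They were picked by name with the results of these data already known, because ADH1C, ALDH1A1 and ALDH3A1 fell with DNp63, the p63 isoform without the N-terminal activation domain. All 8 had enough counts to be among the 12303 genes tested. RNA was sequenced in 8 libraries of LK2, a human cell line from a lung squamous cell carcinoma, in 4 groups of 2. In the constitutive system, the DNp63 libraries carried a DNp63 vector, pLEX_306 in replicate 1 and pLEX_307 in replicate 2, and the GFP libraries carried GFP in the same vectors. In the inducible system, all 4 libraries carried DNp63 in the vector pLIX_403. The induced libraries received doxycycline at 2 µg per ml for 6 days and the uninduced libraries went without the drug for 6 days. No library with doxycycline but without a DNp63 vector was analysed here, so the drug and DNp63 cannot be told apart in the induced cells. The replicates of the constitutive groups differ in vector, so vector and replicate cannot be told apart there. Nothing in the labels tells whether the replicates of the inducible groups are separate cultures. The p-values measure only the spread between these libraries, which holds the vector difference in the constitutive system and may be technical in the inducible one.

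Alcohol dehydrogenases (ADH) use NAD+ to oxidise alcohols, among them ethanol and retinol, to aldehydes or ketones. Aldehyde dehydrogenases (ALDH) oxidise aldehydes to acids. The ALDH1A enzymes make retinoic acid, the ligand of the nuclear retinoic acid receptors, from retinaldehyde, ALDH2 clears acetaldehyde in mitochondria, and the ALDH3A enzymes act on longer aldehydes such as those from oxidised lipids. ALDH1A1 and ALDH3A1 are known for high levels in some lung cancers, and ALDH activity is widely used as a mark of stem-like carcinoma cells.

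Library totals ran from 2758158 to 10372248 counts, and levels are given as CPM, a gene's counts scaled to the same library size. The label check came first: TP63, the gene that encodes DNp63, averaged 2833 ± 1389.9 CPM in DNp63, against 1.32 ± 0.825 CPM in GFP cells, and 417 ± 6.89 CPM in induced, against 13.7 ± 1.48 CPM in uninduced cells (SD, n = 2 each). Replicates differed beyond counting noise in every group, most in DNp63 and in GFP libraries. Of 12 squamous carcinoma markers, 11 averaged over 1 CPM in DNp63 and 8 in GFP cells, and 8 in induced and 7 in uninduced cells. The defining squamous keratin KRT14 was at 0 in every library, and KRT5 averaged 208 ± 268 CPM in DNp63 cells (SD, n = 2) and 0.101 to 0.502 CPM in the other groups. The summed level of that list was 3522 to 5150 CPM in DNp63, 365 to 590.0 CPM in GFP, 845 to 907 CPM in induced and 598 to 635 CPM in uninduced cells. TP63 is 1 of these markers, and without it the sum was 1334 to 1672 CPM in DNp63, 365 to 588 CPM in GFP, 423 to 495 CPM in induced and 583 to 622 CPM in uninduced cells. SOX2, a lineage factor of squamous carcinoma, averaged 82.3 ± 19.9 CPM in DNp63, against 398 ± 169 CPM in GFP cells, and 307.3 ± 42.1 CPM in induced, against 556 ± 27.0 CPM in uninduced cells (SD, n = 2 each). SOX2 was the only marker of this list with a lower mean in DNp63 than in GFP cells, and likewise in induced than in uninduced cells. Its fall thus set the direction of the induced sum without TP63. CALML3 averaged 55.5 CPM in induced, against 3.87 CPM in uninduced cells. KRT6A averaged 25.1 against 4.59 CPM and TRIM29 22.2 against 4.72 CPM in the same groups. The part of these markers in the results below was not tested. These are bulk samples, in which fewer cells of a type and less RNA per cell cannot be told apart.

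ADH1C, a class I alcohol dehydrogenase that acts on ethanol and retinol, was nearly lost in DNp63 cells. It had 0.286 and 1.94 CPM in the DNp63 libraries, from 1 and 10 counts, against 35.5 and 41.1 CPM in the GFP libraries. It had 9.88 and 8.85 CPM in the induced libraries, against 18.7 and 20.0 CPM in the uninduced libraries. The 4 groups did not overlap, and from high to low they stood in the order GFP, uninduced, induced and DNp63. The log2 fold change was −4.93 ± 0.46 for DNp63 over GFP and −1.04 ± 0.34 for induced over uninduced (SE from the edgeR fit). Without DNp63 replicate 2, which leaves that group with 1 count, the DNp63 over GFP value was −6.96 and the average of both systems −4.00, against −2.99 with all libraries. Since this gene was chosen for these falls, they are given as a description with no test. ADH1C and its paralog ADH1B lie side by side on chromosome 4 and overlap on 1 strand in GENCODE v29, and 27.5% of the 38-base stretches of the ADH1C transcript also occur in transcripts of other genes, mostly ADH1B, so reads of this pair are uncertain. ADH1B itself had 0 counts in the DNp63 libraries, against 16 in the GFP libraries. With the DNp63 group placed at 3 counts in all, ADH1B was 6.21-fold lower there than in the GFP group. The exact 95% interval of the DNp63 to GFP ratio was 0 to 0.223 (counting error only). ADH1B had 10 counts in the induced and 7 in the uninduced libraries.

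The promoters of ADH1C, ALDH1A1 and ALDH1A3 are printed because these genes showed unlike patterns over the groups. ADH1C had the lowest averaged fold change. ALDH1A1 had log2 fold changes of −1.80 and −1.49 in the constitutive and inducible systems, and ALDH1A3 was lower in neither. These are descriptions, since ADH1C and ALDH1A1 were chosen for their falls. Each is the 250 bases before the RefSeq start in GRCh38.p14, at chr4:99352747-99352996 on the minus strand for ADH1C, chr9:72953054-72953303 on the minus strand for ALDH1A1, and chr15:100879581-100879830 on the plus strand for ALDH1A3. Capitals mark the matches to 6 motifs searched on both strands.
ADH1C: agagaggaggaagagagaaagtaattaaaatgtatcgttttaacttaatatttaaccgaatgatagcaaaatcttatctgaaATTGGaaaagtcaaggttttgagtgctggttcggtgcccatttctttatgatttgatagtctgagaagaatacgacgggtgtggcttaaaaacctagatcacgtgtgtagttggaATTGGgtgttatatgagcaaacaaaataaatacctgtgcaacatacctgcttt
ALDH1A1: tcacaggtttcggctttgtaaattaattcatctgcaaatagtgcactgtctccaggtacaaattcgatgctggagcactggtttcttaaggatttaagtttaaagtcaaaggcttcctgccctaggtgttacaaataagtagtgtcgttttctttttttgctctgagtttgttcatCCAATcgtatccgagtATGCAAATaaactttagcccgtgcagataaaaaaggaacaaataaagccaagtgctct
ALDH1A3: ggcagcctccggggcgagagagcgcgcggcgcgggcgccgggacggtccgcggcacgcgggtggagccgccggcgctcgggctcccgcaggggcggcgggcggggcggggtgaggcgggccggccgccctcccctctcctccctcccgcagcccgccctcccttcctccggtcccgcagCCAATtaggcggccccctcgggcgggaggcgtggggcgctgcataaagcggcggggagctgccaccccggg
The motifs were the octamer ATGCAAAT, the CCAAT box, the antioxidant response element core TGACNNNGC, the AP-1 site TGANTCA, the SOX site CATTGT and the p53-family half-site. The capitals in ADH1C are 2 CCAAT boxes read on the other strand, 168 and 53 bases before the start. ALDH1A1 has a CCAAT box and an octamer, 74 and 58 bases before the start, and ALDH1A3 has a CCAAT box 71 bases before it. Of 35116 RefSeq promoters of this length, 1.63% hold the octamer and 32% the CCAAT box. The antioxidant response element core is in 10.9% of them, the AP-1 site in 6.57%, the SOX site in 9.29% and the p53-family half-site in 1.28%, and these 4 have no match in the 3 windows shown. A match is a description of the letters, not a measured binding site.

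ADH5, the glutathione-dependent formaldehyde dehydrogenase found in most tissues, did not pass in either system. It had 179 and 215 CPM in the DNp63 libraries, against 206 and 270.0 CPM in the GFP libraries. It had 276 and 281 CPM in the induced libraries, against 274 and 314 CPM in the uninduced libraries. In both systems the ranges overlapped, and the log2 fold change was −0.27 ± 0.20 in the constitutive and −0.08 ± 0.20 in the inducible system. Of its 38-base stretches 20.8% also occur in other transcripts, most often in the pseudogene ADH5P4.

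ADH7, the class IV enzyme of the stomach and upper airway and digestive tract with high activity on retinol, was close to the detection limit. It had 0 and 27 counts in the DNp63 libraries, against 2 and 36 in the GFP libraries. It had 0 counts in both induced libraries, against 2 and 12 in the uninduced libraries. In the constitutive system the second replicate held nearly all the counts of each group, and the ratio of summed, depth-scaled counts was 0.610 (95% exact interval 0.358 to 1.03, counting error only). With the induced group placed at 3 counts in all, it was 4.03-fold lower than the uninduced group. The exact 95% interval of the induced to uninduced ratio was 0 to 0.349 (counting error only). No fitted fold change is given for ADH7, since 1 group is empty.

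ALDH1A1, the cytosolic retinaldehyde dehydrogenase, fell in both systems. It had 1975 and 1221 CPM in the DNp63 libraries, against 5431 and 5711 CPM in the GFP libraries. It had 2894 and 2746 CPM in the induced libraries, against 7463 and 8414 CPM in the uninduced libraries. No group overlapped another, and the order from high to low was uninduced, GFP, induced and DNp63. The log2 fold change was −1.80 ± 0.22 for DNp63 over GFP and −1.49 ± 0.22 for induced over uninduced, a description as for ADH1C.

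ALDH1A3, the other enzyme of the same step that was measured at depth here, was not lower in either DNp63 group. It had 36.0 and 34.7 CPM in the DNp63 libraries, against 34.7 and 32.0 CPM in the GFP libraries. It had 28.8 and 36.6 CPM in the induced libraries, against 16.9 and 18.6 CPM in the uninduced libraries. The uninduced group alone lay apart, below the other 3, whose ranges overlapped one another. The log2 fold change was 0.09 ± 0.23 in the constitutive and 0.87 ± 0.23 in the inducible system. ALDH1A2, the third enzyme of this class, had 6 counts over all 8 libraries.

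ALDH3A1, an enzyme of stress-exposed epithelia such as the cornea that oxidises medium-chain aldehydes, was among the most abundant transcripts of the control cells. It had 1794 and 1327 CPM in the DNp63 libraries, against 9037 and 17548 CPM in the GFP libraries. It had 7218 and 8531 CPM in the induced libraries, against 11789.8 and 9848 CPM in the uninduced libraries. DNp63 lay lowest, induced next, and the GFP and uninduced groups overlapped above them. The GFP replicates stood furthest apart of the 4 groups. The log2 fold change was −3.09 ± 0.30 for DNp63 over GFP and −0.46 ± 0.28 for induced over uninduced. As a share of all counts of a library, ALDH3A1 was lowest at 0.139% in DNp63 replicate 2 (95% exact binomial interval 0.136% to 0.142%) and highest at 1.72% in GFP replicate 2 (1.71% to 1.73%), where the intervals cover counting error only.

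ALDH2, the mitochondrial acetaldehyde dehydrogenase, did not pass in either system in the fit of all 8 libraries. With only the libraries of the inducible system in the fit it passed there, higher in induced cells. It had 368 and 476 CPM in the DNp63 libraries, against 423 and 389 CPM in the GFP libraries. It had 467 and 507 CPM in the induced libraries, against 339.7 and 345 CPM in the uninduced libraries. The constitutive groups overlapped and the inducible groups did not, with log2 fold changes of 0.06 ± 0.19 and 0.51 ± 0.18.

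ALDH3A2, the fatty aldehyde dehydrogenase whose loss causes Sjögren-Larsson syndrome, did not pass either. It had 80.6 and 67.7 CPM in the DNp63 libraries, against 70.6 and 47.0 CPM in the GFP libraries. It had 49.8 and 59.0 CPM in the induced libraries, against 59.0 and 65.1 CPM in the uninduced libraries. The DNp63 and GFP ranges overlapped, the induced range reached just into the uninduced one, and the log2 fold changes were 0.34 ± 0.24 and −0.19 ± 0.23.

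**Figure D1:**
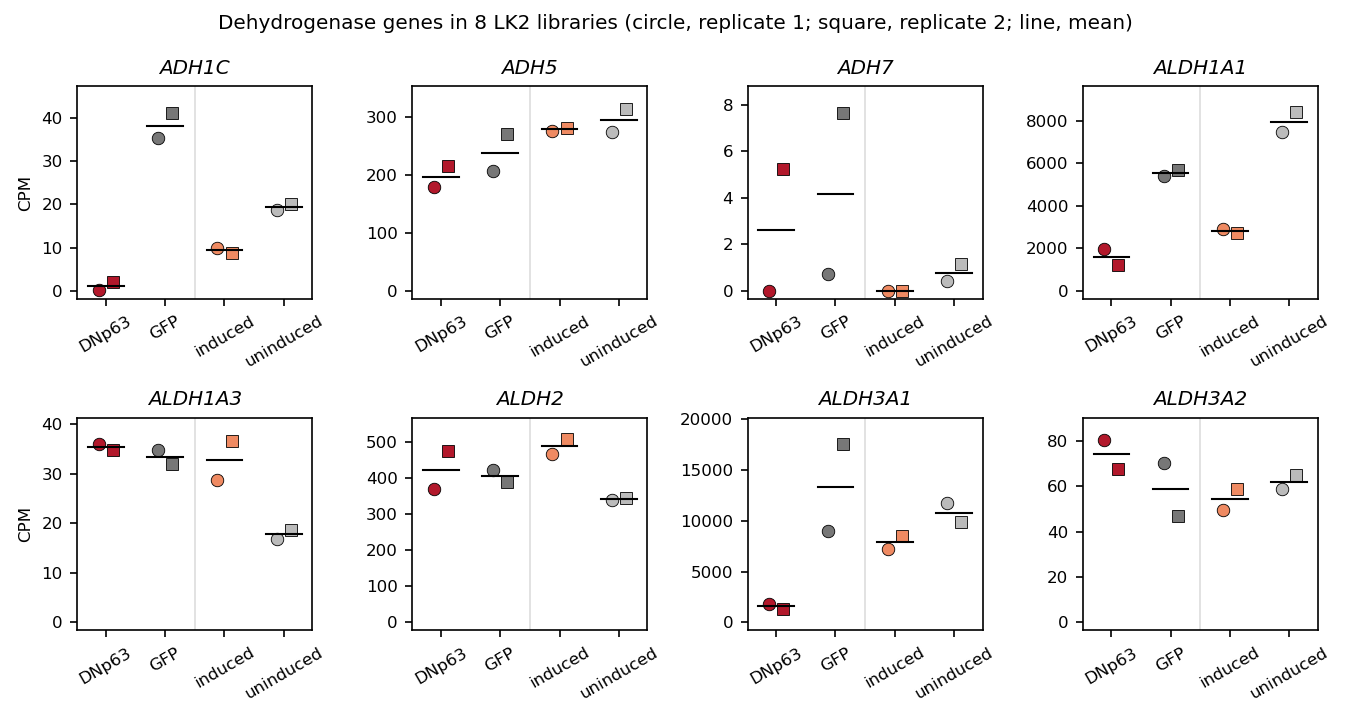
Level of each of the 8 genes in every library, in CPM on a linear axis that includes 0, by group (DNp63 and GFP, then induced and uninduced; circles replicate 1, squares replicate 2, lines the mean of 2). ADH1C, ALDH1A1 and ALDH3A1 are lower in both DNp63 libraries than in both GFP libraries and lower in both induced than in both uninduced libraries; ADH1C is at 0.286 and 1.94 CPM in DNp63 cells, against 35.5 and 41.1 CPM in GFP cells.

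Averaged over both systems, 3 of the 8 genes passed an edgeR adjusted p of 0.05, all 3 lower, beside 5.67% of all tested genes in either direction, 2.41% lower and 3.26% higher. The members were chosen with this contrast known, so nothing is read from that count. The averaged log2 fold changes of these 3 genes were −2.99 ± 0.29 for ADH1C, −1.77 ± 0.20 for ALDH3A1 and −1.65 ± 0.16 for ALDH1A1. Among the members that did not pass, the largest was 0.48 ± 0.16 for ALDH1A3 and the lowest was −0.18 ± 0.14 for ADH5, apart from ADH7. The same 3 genes passed in the constitutive system, beside 8.16% of tested genes called there, 3.99% lower and 4.17% higher, and ALDH1A1 alone passed in the inducible system, beside 0.284% of tested genes called there and 0.0488% called lower. Without either induced or either uninduced library the inducible count was 0, and with only the libraries of that system in the fit it was 5, beside 6.43% of the 11991 genes tested there. Those 5 were ADH1C, ALDH1A1 and ALDH3A1, lower, and ALDH1A3 and ALDH2, higher. Lower in both systems with no overlap between libraries were 3 members, beside 7.15% of all tested genes, and higher in both were 0 members, beside 7.84%. The 3 were ADH1C, ALDH1A1 and ALDH3A1, which were chosen for their falls in these libraries. Nothing is therefore read from the constitutive, inducible and no-overlap counts of members either.

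**Figure D2:**
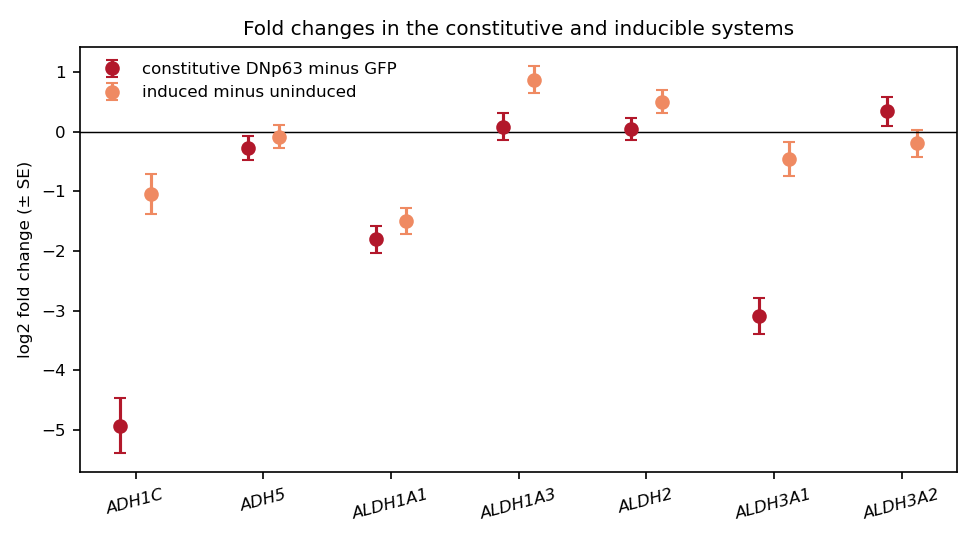
Log2 fold changes of 7 genes in the constitutive system (DNp63 over GFP, dark) and the inducible system (induced over uninduced, light), with bars for ± SE of the edgeR fit; ADH7 is left out because 1 group has 0 counts. ADH1C stands at −4.93 and −1.04, ALDH3A1 at −3.09 and −0.46, and ALDH1A1 at −1.80 and −1.49.

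ADH1C and ALDH3A1 were further below their controls in the constitutive than in the inducible system. The induced effect minus the constitutive effect was 3.88 ± 0.59 on the log2 scale for ADH1C (edgeR adjusted p = 0.027). For ALDH3A1 the difference was 2.63 ± 0.40 (edgeR adjusted p = 0.027). These were 2 of the 8 members, beside 0.545% of all tested genes called for this difference, but both were chosen for falls in these same libraries, so these p-values are not independent evidence of a difference. For ALDH1A1 the difference was 0.31 ± 0.31, with a 95% interval of −0.37 to 0.99 and an edgeR adjusted p of 0.753, which does not show that the systems acted alike. The differences of ALDH1A3 (0.79 ± 0.32, edgeR adjusted p = 0.358), ALDH2 (0.45 ± 0.26, 0.539), ALDH3A2 (−0.54 ± 0.33, 0.562) and ADH5 (0.19 ± 0.28, 0.846) did not pass, nor did that of ADH7 (edgeR adjusted p = 0.606). TP63 was higher in DNp63 than in induced cells, by the values above, and its part in the difference was not tested. The ADH1C difference did not pass without GFP replicate 2 (adjusted p = 0.0616), without uninduced replicate 1 (0.144) or 2 (0.174), and without induced replicate 1 (0.201) or 2 (0.144), and its value was 5.92 without DNp63 replicate 2. The ALDH3A1 call was lost without uninduced replicate 1 (0.126) or 2 (0.174) and without induced replicate 1 (0.201) or 2 (0.176).

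Between the uninduced and the GFP cells, the controls of the 2 systems, no member passed edgeR or DESeq2, and 3 members had an unadjusted edgeR p below 0.05. The uninduced minus GFP difference was −0.98 ± 0.33 for ADH1C (edgeR adjusted p = 0.417), −0.90 ± 0.23 for ALDH1A3 (0.277) and 0.51 ± 0.22 for ALDH1A1 (0.518). The other members stood at 0.30 for ADH5 (0.691), −0.25 for ALDH2 (0.748), −0.30 for ALDH3A1 (0.808) and 0.09 for ALDH3A2 (0.946), and the adjusted p of ADH7 was 0.622. Of all tested genes 0.00813%, a single gene, passed edgeR here, while 1120 had an unadjusted p below 0.05 and DESeq2 called 57. This comparison shares its GFP libraries with the constitutive contrast and its uninduced libraries with the inducible one. TP63 averaged 13.7 CPM in uninduced, against 1.32 CPM in GFP cells, a difference of 3.23 ± 0.50 on the log2 scale (edgeR adjusted p = 0.165). The part of TP63 in the differences between controls was not tested. For ADH7 the ratio of uninduced to GFP counts was 0.179 (95% exact interval 0.0898 to 0.339, counting error only), from 14 and 38 counts.

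**Figure D3:**
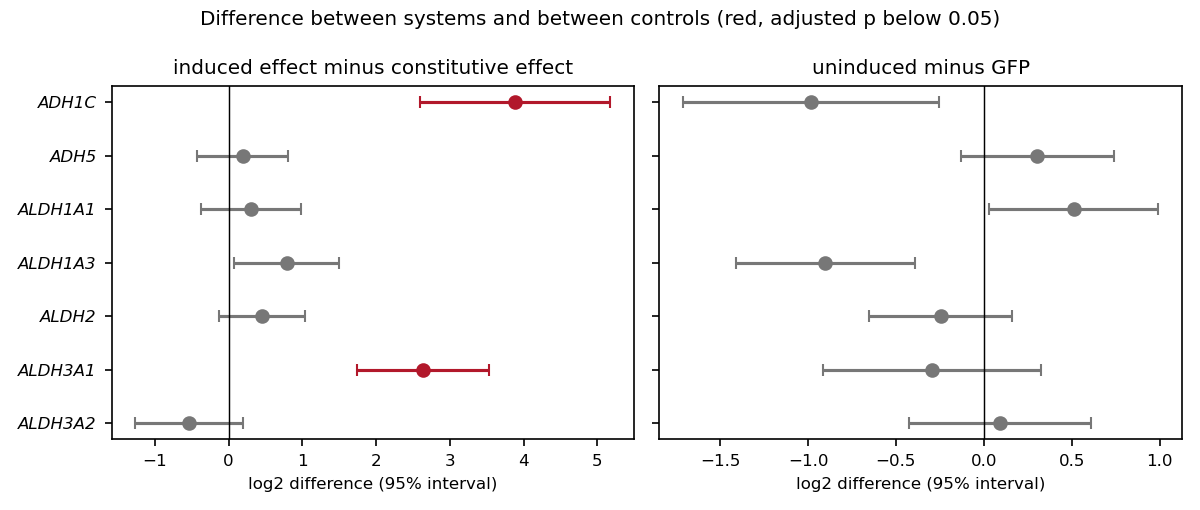
Log2 differences of 7 genes with 95% intervals, on the left the induced effect minus the constitutive effect and on the right uninduced minus GFP; red marks an edgeR adjusted p below 0.05. On the left ADH1C (3.88) and ALDH3A1 (2.63) lie to the right of 0, and on the right no gene is red.

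Together the 8 genes took 0.463% and 0.351% of all counts in the DNp63 libraries, against 1.50% and 2.36% in the GFP libraries. They took 1.08% and 1.18% in the induced libraries, against 1.96% and 1.89% in the uninduced libraries. ALDH1A1 and ALDH3A1 made up 76.1% to 96.7% of these counts. Per kilobase of the GENCODE v29 principal transcript, ALDH3A1 averaged 811 CPM per kb in DNp63 cells, against 6905 CPM per kb in GFP cells. On this length-scaled level it ranked 66 of 11754 genes in DNp63 cells and 3 in GFP cells. In the inducible system ALDH3A1 averaged 4091 CPM per kb in induced cells, against 5620.2 CPM per kb in uninduced cells, with ranks of 11 and 3. ALDH1A1 averaged 758 CPM per kb in DNp63 (rank 71), against 2644 CPM per kb in GFP cells (rank 24), and 1338 CPM per kb in induced (rank 54), against 3768 CPM per kb in uninduced cells (rank 13). ADH5 was next at 75.4 to 112 CPM per kb over the 4 groups, and ADH1C reached 22.0 CPM per kb in GFP cells. ADH1C averaged 0.639 CPM per kb in DNp63 cells.

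Of 19 other ADH and ALDH genes listed, 9 were tested, and in the averaged contrast 1 rose, none fell and 8 did not pass, beside 5.67% of all tested genes called. The median log2 fold change of the 9 was −0.031, against −0.0058 over all tested genes. The 1 that rose was ADHFE1, an iron-type enzyme that oxidises 4-hydroxybutyrate, at 2.01 ± 0.40 (edgeR adjusted p = 0.0144). ADHFE1 averaged 5.01 ± 1.42 CPM in DNp63, against 2.17 ± 0.0702 CPM in GFP cells, and 5.51 ± 2.51 CPM in induced, against 0.791 ± 0.0193 CPM in uninduced cells (SD, n = 2 each). It did not pass without GFP replicate 2 (adjusted p = 0.0633), uninduced replicate 1 (0.0809) or 2 (0.108), or induced replicate 1 (0.0989). The next by p were ALDH16A1 at −0.45 (edgeR adjusted p = 0.237), the mitochondrial ALDH1B1 at −0.27 (0.328) and ALDH9A1, which oxidises aminobutyraldehyde, at −0.19 (0.484). Among the genes with too few counts to be tested, ALDH8A1, of the kynurenine pathway, had 7 counts in DNp63 and 0 in GFP libraries, and 14 in induced and 1 in uninduced libraries, a ratio of 16.2 (95% exact interval 2.47 to 685, counting error only) in the inducible system. ADH1A and ADH4 were listed at 0 in every library. The widely expressed ALDH7A1 had 5 counts in all, so a level at or near 0 in this table may not show that a gene is silent.

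Genes that carry, convert or answer to retinoids changed in both directions. Of 27 listed, 18 were tested. In the averaged contrast 5 rose, 1 fell and 12 did not pass, beside 3.26% of all tested genes higher and 2.41% lower. The median log2 fold change of the 18 was −0.012. CRABP2, which carries retinoic acid to its nuclear receptors, rose by 1.58 ± 0.20 on the log2 scale (edgeR adjusted p = 0.00124), with 111 ± 47.4 CPM in DNp63, against 22.1 ± 4.85 CPM in GFP cells, and 99.1 ± 0.288 CPM in induced, against 56.9 ± 1.13 CPM in uninduced cells. STRA6, the cell surface receptor that takes up retinol, rose by 2.84 ± 0.44 (edgeR adjusted p = 0.00381), with 53.4 ± 39.6 CPM in DNp63, against 2.27 ± 2.01 CPM in GFP cells, and 9.56 ± 0.945 CPM in induced, against 4.84 ± 0.302 CPM in uninduced cells. Both calls held without each library in turn. The other rises were RARB, a retinoic acid receptor (0.72 ± 0.16, edgeR adjusted p = 0.023), DHRS3, which turns retinaldehyde back to retinol (0.55 ± 0.13, 0.0343), and CYP26B1, which breaks down retinoic acid (1.89 ± 0.49, 0.0478). In DNp63, GFP, induced and uninduced cells RARB averaged 78.8, 47.3, 39.9 and 24.3 CPM. DHRS3 averaged 231, 172, 152 and 95.3 CPM, and CYP26B1 14.9, 2.51, 7.43 and 3.34 CPM. Induced cells thus lay below GFP cells for RARB and DHRS3. Uninduced minus GFP was −0.95 ± 0.22 for RARB (edgeR adjusted p = 0.257) and −0.85 ± 0.19 for DHRS3 (0.254).

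The retinoid gene that fell acts before the ALDH1A step. RDH10, which makes retinaldehyde from retinol, was at −1.69 ± 0.29 (edgeR adjusted p = 0.00722), with 9.38 ± 1.55 CPM in DNp63, against 59.6 ± 39.9 CPM in GFP cells, and 16.4 ± 1.78 CPM in induced, against 26.8 ± 4.59 CPM in uninduced cells (SD, n = 2 each). The RDH10 call was lost without induced replicate 1 (adjusted p = 0.0732). RARB lost its call without GFP replicate 2 (0.0601), uninduced replicate 1 (0.157) or 2 (0.0764), or induced replicate 1 (0.0877) or 2 (0.121). DHRS3 lost it without GFP replicate 2 (0.0923), uninduced replicate 1 (0.198) or 2 (0.189), or induced replicate 1 (0.102) or 2 (0.179). CYP26B1 lost it without DNp63 replicate 2 (1.22, adjusted p = 0.118), GFP replicate 1 (0.1) or 2 (0.125), uninduced replicate 2 (0.199), or induced replicate 1 (0.187) or 2 (0.135). In single systems CRABP2 and STRA6 rose and RDH10 fell in DNp63 over GFP. No gene of the list passed edgeR for induced over uninduced in the fit of all 8 libraries. There 4 had an unadjusted edgeR p below 0.05, beside 743 of the 12303 tested genes.

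The aldo-keto and carbonyl reductases turn aldehydes and ketones into alcohols with NADPH. Of 14 listed, 10 were tested. In the averaged contrast 1 fell and none rose, beside 2.41% of all tested genes lower and 3.26% higher. The median log2 fold change of the 10 was −0.32. The 1 that fell was CBR3, a carbonyl reductase, at −1.13 ± 0.25 (edgeR adjusted p = 0.0231), with 3.17 ± 0.367 CPM in DNp63, against 12.1 ± 2.42 CPM in GFP cells, and 8.56 ± 0.408 CPM in induced, against 10.7 ± 1.94 CPM in uninduced cells (SD, n = 2 each). CBR3 did not pass without GFP replicate 2 (adjusted p = 0.0838), uninduced replicate 1 (0.138) or 2 (0.0791), or induced replicate 1 (0.116) or 2 (0.0837). In the constitutive system 3 of the 10 fell, beside 3.99% of tested genes, and none rose; AKR1C3 and AKR7A2 are named after their values were seen. CBR3 was at −1.95 ± 0.37 there (edgeR adjusted p = 0.0101; 0.0716 without GFP replicate 2). AKR7A2, an aldehyde reductase, was at −1.12 ± 0.26 (edgeR adjusted p = 0.025), and did not pass without DNp63 replicate 1 (0.0631), GFP replicate 1 (0.0757), uninduced replicate 1 (0.0586) or 2 (0.0588), or induced replicate 1 (0.0612) or 2 (0.0614). AKR1C3, a steroid and prostaglandin reductase, fell by 1.43 on the log2 scale (SE 0.24, edgeR adjusted p = 0.00564), with 180 ± 19.2 CPM in DNp63, against 483 ± 176 CPM in GFP cells. In induced cells AKR1C3 had 451 ± 29.8 CPM, against 406 ± 6.76 CPM in uninduced cells. Of the 38-base stretches of its transcript 14.7% also occur in other transcripts, most often of its paralog AKR1C2. With only the constitutive libraries in the fit the adjusted p was 0.0697 for AKR1C3, 0.163 for AKR7A2 and 0.0883 for CBR3.

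Of 10 further genes of ethanol, peroxide and aldehyde handling, 6 were tested. None passed edgeR in the averaged contrast, beside 5.67% of all tested genes, and their median log2 fold change was 0.30. The smallest p were those of ACADVL, a fatty acid dehydrogenase (0.49, edgeR adjusted p = 0.0881), AIFM2, a quinone reductase that protects lipids from oxidation (0.38, 0.147), and ACSS2, which makes acetyl-CoA from acetate (−0.81, 0.22). These 3 had an unadjusted edgeR p below 0.05, beside 2346 of the 12303 tested genes. By DESeq2 1 of the 6 passed, beside 885 of all tested genes. CYP2E1, which oxidises ethanol, and ESD, an esterase that acts after ADH5 in formaldehyde removal and is widely expressed, were listed at 0 in every library. CBR1, a widely expressed carbonyl reductase, had 2 counts in all.

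**Figure D4:**
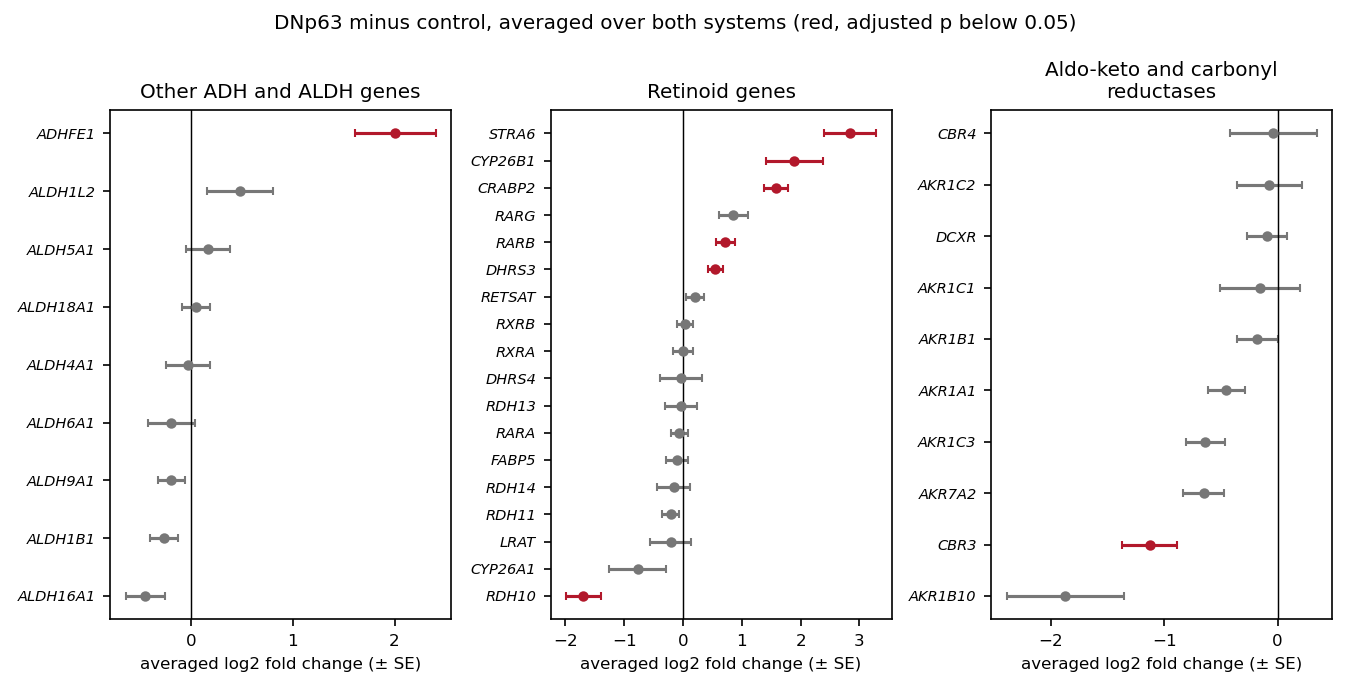
Averaged log2 fold change (DNp63 minus control, mean of both systems) of the tested genes of 3 lists, with bars for ± SE of the edgeR fit; red marks an edgeR adjusted p below 0.05. ADHFE1 (2.01), STRA6 (2.84), CYP26B1 (1.89), CRABP2 (1.58), RARB (0.72) and DHRS3 (0.55) are red to the right of 0, and RDH10 (−1.69) and CBR3 (−1.13) are red to the left.

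Over the 8 libraries, the genes whose log2 CPM most resembled those of the 3 members that fell were found among 10105 genes averaging 5 CPM or more, by Pearson correlation given as a description; the points share 4 groups and their libraries. For ADH1C these were the long noncoding RNA MIAT (r = 0.994), MCCC2, a subunit of methylcrotonyl-CoA carboxylase (0.992), and ID3, an inhibitor of helix-loop-helix transcription factors (0.989). For ALDH1A1 they were GALNT10, which starts mucin-type O-glycans (0.981), WDR34, a chain of the ciliary dynein (0.979), and the collagen COL8A1 (0.964). For ALDH3A1 they were the carbonyl reductase CBR3 (0.995), ZNHIT1, a chromatin remodelling subunit (0.992), and MAD2L1 of the spindle checkpoint (0.987). The correlation takes no account of the size of a change, which differed widely among these genes. ZNHIT1 had 60.9 and 59.9 CPM in the DNp63 libraries, against 76.9 and 84.9 CPM in the GFP libraries. MIAT had 8.29 and 29.9 CPM, against 281 and 299 CPM in the same groups. The correlation was 0.912 between ADH1C and ALDH3A1, 0.861 between ALDH1A1 and ALDH3A1, and 0.808 between ADH1C and ALDH1A1. Between ALDH1A1 and ALDH1A3 it was −0.702.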

How the data were processed

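RNA was measured by paired-end sequencing of directional polyA libraries with 38-base reads, per the labels' protocols. The deposited table holds unnormalized gene counts; per the submitters' processing notes the authors used TopHat2 2.1, HTSeq, SAMtools and DESeq2 with hg19. The sources used here do not give the annotation or strand setting. No hg19 annotation was used, so genes carry the table's symbols without coordinates of that build. Promoters come from RefSeq (GRCh38.p14), which matched 6 of the 8 members; transcript lengths and shared stretches come from GENCODE v29.

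Counts were filtered with filterByExpr (minimum count 10), scaled by trimmed means of M-values and fitted in edgeR 4.0.16 (quasi-likelihood, legacy estimates, R 4.3.3) with 4 group means over 8 libraries. Tests were two-sided with Benjamini-Hochberg adjustment over 12303 genes and a threshold of 0.05; log2 CPM used a prior count of 2. On simulated data with 12056 tested genes, the averaged contrast called 74 of 100 genes changed 2-fold, 98 of 100 changed 4-fold, and 4 unchanged genes. The simulation gave all groups the same spread and both systems the same fold. In the real libraries DNp63 and GFP replicates differed more than the others, so these rates may not hold for them. DESeq2 1.42.0, other scaling, no filter, fits per system, blocks and leave-one-out fits were alternatives. Groups with few counts were compared by summed counts with exact 95% intervals, or with an empty group set to 3 counts in all.

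A listed gene is not reported here. Members and lists were chosen with earlier results of these data known. Named by rule were the members, TP63, each list gene called in the averaged contrast or otherwise up to 3 with the smallest p, and 3 genes most correlated with each member that fell. Lists of adenocarcinoma or club and alveolar (6 genes), fibroblast (6) and immune or endothelial markers (7) each had at most 1 gene over 1 CPM in any group (NKX2-1, COL1A1 and CD68).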

Additional observations from a re-analysis of the deposited data

Results flagged for a closer look

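A difference between the 2 systems brought up ADH1C and ALDH3A1. For ADH1C the induced effect minus the constitutive effect was 3.88 on the log2 scale (SE 0.59, edgeR adjusted p = 0.027), with both DNp63 libraries further below both GFP libraries than the induced libraries lay below the uninduced ones. For ALDH3A1 the same difference was 2.63 (SE 0.40, edgeR adjusted p = 0.027). The call ended without any 1 of 5 libraries for ADH1C (adjusted p = 0.0616 to 0.201) and of 4 libraries for ALDH3A1 (0.126 to 0.201), each named above, and both genes were chosen for their falls in these libraries. Constitutive cells had more TP63, with 2833 ± 1389.9 CPM in DNp63 and 417 ± 6.89 CPM in induced cells (SD, n = 2 each). The systems also differed in vector and in doxycycline, and the part of each in the difference was not tested.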

How the results depend on the processing

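With other size factors, no low-count filter, DESeq2, newer edgeR estimates and blocks, ADH1C, ALDH1A1 and ALDH3A1 kept their averaged direction. The count of members passing was 3 in the averaged contrast, against 4 with no filter. It was 1 in the inducible system, and 5 with only the libraries of that system. Of the reductases 1 passed, against 4 with no filter, 4 by DESeq2, 2 with newer edgeR estimates, 3 with the replicate block and 4 with a vector block in the constitutive system, added after seeing the data. Of the ethanol, peroxide and aldehyde genes 0 passed, against 2 with no filter, 1 by DESeq2 and 2 with the vector block. Over all tested genes the averaged contrast called 697, against 1372 with no filter and 1421 with the vector block, and 225 to 1113 without 1 library. The constitutive contrast called 1004, against 1791, 1940 and 275 with only its own libraries, and 452 to 1438 without 1 library. The inducible contrast called 35, against 242 with no filter, 163 with the vector block, 110 by DESeq2 and 771 with only its own libraries, and 2 to 104 without 1 library. The difference called 67, against 558, 472 and 265 by DESeq2, and 0 to 446 without 1 library; between controls it was 1, against 245, 338 and 57, and 0 to 43. Leaving out 1 library at a time, the counts ranged from 3 to 3 for members in the averaged and constitutive contrasts, 0 to 1 in the inducible contrast, 0 to 2 for the difference between systems, 0 to 0 between controls, 0 to 1 for other ADH and ALDH genes, 2 to 6 for retinoid genes, 0 to 3 for reductases and 0 to 1 for the ethanol list. Signs turned in 9 values, none past the threshold: leave-one-out values of the difference ran from −0.0048 (without GFP replicate 2) to 0.38 for ADH5 and from −0.00064 (without DNp63 replicate 2) to 0.70 for ALDH1A1. Between controls they ran from −0.70 to 0.26 (without GFP replicate 2) for ALDH3A1 and from −0.18 (without GFP replicate 2) to 0.40 for ALDH3A2, and ALDH3A2 was −0.096 with the vector block. ADH5 was 0.023 in the inducible system without uninduced replicate 2, ALDH2 in the constitutive system −0.016 without GFP replicate 2 and −0.14 without DNp63 replicate 2, and ALDH3A2 −0.070 in the averaged contrast without GFP replicate 2. The cause was not tested. With the replicate block the member counts were 3, 3, 1, 2 and 0. The differences were then 3.92 for ADH1C (edgeR adjusted p = 0.017) and 2.59 for ALDH3A1 (0.0178). Same-numbered libraries did not deviate together across all groups (correlations of −0.0923 to 0.22). The highest correlation, 0.22, was between DNp63 and GFP, whose same-numbered libraries share a vector. The main fit did not use this pairing. With the vector block the member counts were 3 in the averaged, 3 in the constitutive and 1 in the inducible contrast. They were 2 for the difference between systems and 0 between controls. The ADH1C difference was then 3.93 (edgeR adjusted p = 0.00167). Calls of the other lists that moved with the vector block are given above.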
